A study of Homo sapiens with 6 samples.

Results

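The 10 genes described here encode transcription factors of blood stem and progenitor cells, excluding the RUNX and C/EBP families: GATA2, TAL1, LYL1, LMO2, ERG, FLI1, MYB, HHEX, MEIS1 and GFI1B. They were listed by name, with earlier results of these data known. Matching the Ensembl IDs of the count tables to gene symbols gave 10 of 60612 gene IDs. Of these, 9 passed the filter on low counts and were tested among 15395 genes, and MEIS1 did not. RNA was sequenced in 6 libraries of KO52, an acute myeloid leukaemia cell line that carries a CEBPA double mutant genotype in every group. In the dnCEBP and dnFOS groups the cells had been transduced with a doxycycline-inducible lentivirus for a dominant negative peptide, which pairs with C/EBP proteins or with the partners of FOS and keeps them off DNA. The Empty Vector (EV) cells expressed GFP without a peptide. Cells were sorted for GFP after doxycycline, there were 2 libraries in each of the 3 groups, and all came from a single cell line. The paper states a duration of induction in KO52 cells for dnC/EBP only. The duration for dnFOS and EV before RNA extraction was not given in the sources used here. Whether it was the same in the 3 groups is therefore not known.

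These factors act in shared complexes. TAL1 and LYL1 are related basic helix-loop-helix proteins that bind DNA with an E protein partner, LMO2 is a bridging protein without DNA contact of its own, and GATA2 is the zinc finger protein of the GATA family found in stem cells, mast cells and early progenitors. ERG and FLI1 are ETS factors that occupy many of the same enhancers, together with RUNX1. MYB drives expansion of progenitors and recruits the histone acetyltransferases CREBBP and EP300, HHEX is a homeobox repressor, MEIS1 is a homeobox partner of HOXA9, and GFI1B is a repressor of erythroid and megakaryocytic cells that recruits KDM1A and RCOR1.

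Promoters are shown for the 3 genes with a difference between dnFOS and dnCEBP, because the peptides remove factors that bind AP-1 and C/EBP motifs. Each sequence is a RefSeq window on GRCh38.p14 of 250 bases before and 50 bases after a transcription start, read 5′ to 3′ on the gene's strand, so that the start is the first of the last 50 bases. The LYL1 window is chr19:13102809-13103108 on the minus strand, the TAL1 window chr1:47232286-47232585 on the minus strand, and the GFI1B window chr9:132978444-132978743 on the plus strand. Capitals mark matches, on either strand, to TGANTCA (AP-1), TTNNGCAA (C/EBP) and GATAA (GATA).
LYL1: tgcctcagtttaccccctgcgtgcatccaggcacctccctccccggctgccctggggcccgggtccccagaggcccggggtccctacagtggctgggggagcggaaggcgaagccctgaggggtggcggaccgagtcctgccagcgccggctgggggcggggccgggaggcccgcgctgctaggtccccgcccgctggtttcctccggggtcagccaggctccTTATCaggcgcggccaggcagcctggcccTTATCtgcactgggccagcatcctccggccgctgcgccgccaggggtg
TAL1: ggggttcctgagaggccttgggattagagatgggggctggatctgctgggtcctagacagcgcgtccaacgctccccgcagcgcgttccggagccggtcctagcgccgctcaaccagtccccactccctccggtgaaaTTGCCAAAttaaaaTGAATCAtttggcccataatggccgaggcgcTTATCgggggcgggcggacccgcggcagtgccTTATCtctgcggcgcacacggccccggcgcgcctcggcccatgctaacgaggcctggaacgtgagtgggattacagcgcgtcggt
GFI1B: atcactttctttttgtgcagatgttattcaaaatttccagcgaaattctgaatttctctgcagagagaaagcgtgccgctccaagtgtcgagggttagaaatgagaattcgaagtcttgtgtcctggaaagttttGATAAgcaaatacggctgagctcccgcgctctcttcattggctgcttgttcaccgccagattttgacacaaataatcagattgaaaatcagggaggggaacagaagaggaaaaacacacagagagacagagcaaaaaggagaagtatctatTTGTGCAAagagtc

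The LYL1 window held GATA matches at bases 224 and 253 and no AP-1 or C/EBP match. In the TAL1 window the C/EBP match began at base 139, the AP-1 match at base 153 and the GATA matches at bases 184 and 216, and this start lies upstream of the first base of TAL1 in GENCODE. The GFI1B window, the second of its RefSeq starts and inside the annotated gene, held a GATA match at base 136 and a C/EBP match at base 287. TAL1 and GFI1B each have another RefSeq window, not printed: that of TAL1 held only a C/EBP match, at base 35, and that of GFI1B held no match. For both genes the window with more matches is the one shown, and LYL1 has 1 window. Windows were found for 8 of the 10 genes, 14 in all, of which 1 held the AP-1 letters, 3 the C/EBP letters and 6 the GATA letters, with 1 GATA site counted in 2 overlapping ERG windows. Over 35116 promoter windows of the same length the shares were 7.71% for AP-1, 10.5% for C/EBP and 22.7% for GATA. A match in letters is not evidence of binding, and enhancers were not searched.

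Total counts per library ran from 9862994 to 27663179 and were lowest in both dnFOS libraries. Replicates of a group differed by more than sampling noise: the ratio of chi-square to its degrees of freedom was 8.05 (EV), 9.06 (dnCEBP) and 14.4 (dnFOS). Nothing in the labels says that replicates were separate cultures, so p-values measure the spread between these libraries, which may be technical. The peptides act on proteins, so no gene's count checks the group labels. Blast markers present were PTPRC (CD45, 313 to 512 CPM), CD34 (114 to 154 CPM) and CD33 (54.7 to 64.1 CPM). Among the erythroid genes HBB had 6 to 67 counts per library and HBA2 and HBG1 had none. Markers of other lineages were present too, among them CD3D of the lymphoid list (90.7 to 147.5 CPM) and CPA3 of mast cells (36.9 to 128.6 CPM). These levels alone do not give an identity. Values below are CPM, counts scaled to a common library size with TMM factors, and adjusted p-values are from edgeR's quasi-likelihood test with Benjamini-Hochberg adjustment over all 15395 genes unless another tool is named. A gene was called at an adjusted p under 0.05.

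LYL1 fell in dnFOS, GFI1B rose in dnCEBP and fell in dnFOS relative to dnCEBP, and LMO2, ERG, FLI1, MYB and HHEX passed the test in no comparison. In dnFOS versus EV, 2 of 9 tested members were called, LYL1 and GATA2, both lower, where 15.0% of all tested genes were called. In dnCEBP versus EV, 1 of 9 was called, GFI1B, which was higher, where 1.07% of all tested genes were called. Between the peptides, LYL1, TAL1 and GFI1B were called, 3 of 9, all lower in dnFOS, where 14.7% of all tested genes were called. Read against these shares, the counts of 2 and 3 rest on few genes and are described gene by gene. The 3 comparisons share groups and are not independent. The median log2 difference over the 9 members was -0.06 for dnFOS minus EV and 0.02 for dnCEBP minus EV, against 0.004 and -0.0022 over all tested genes. The plot of levels by library shows all 10 genes.

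**Figure D1:**
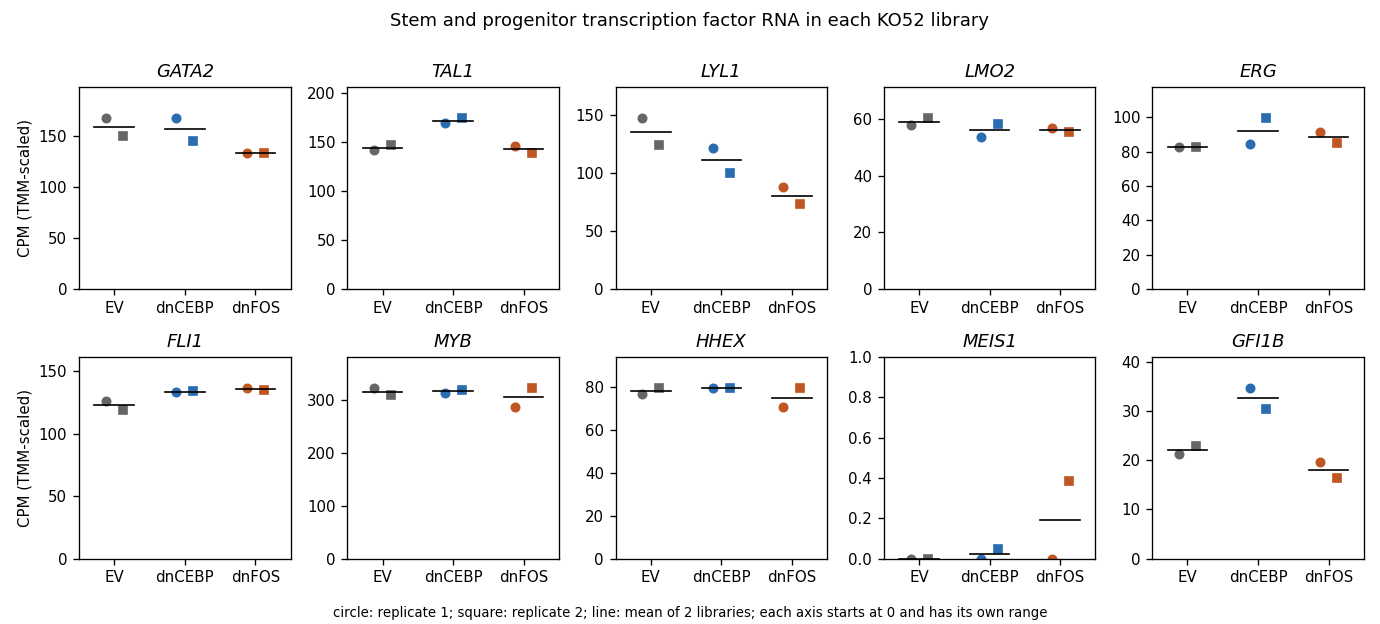
RNA level of the 10 transcription factors in each library, in CPM on TMM-scaled library sizes (vertical axes from 0, each with its own range), for EV, dnCEBP and dnFOS. Circles are replicate 1, squares replicate 2 and lines the mean of 2 libraries. LYL1 is lowest in dnFOS at 88.1 and 73.1 CPM, GFI1B is highest in dnCEBP at 34.7 and 30.4 CPM, and MEIS1 is at or near 0 throughout.

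LYL1 (ENSG00000104903, chr19:13099033-13103161, minus strand), the paralogue of TAL1, showed the largest fall of the group. Its level was 147 and 124 CPM in EV, 122 and 100 CPM in dnCEBP and 88.1 and 73.1 CPM in dnFOS, on counts of 756 to 3513. Every dnFOS library lay below every EV and dnCEBP library, and every dnCEBP library lay below both EV libraries. The log2 fold change was -0.75 ± 0.11 (SE, adjusted p = 5.16e-05) for dnFOS minus EV, a fold of 1.68 lower. For dnCEBP minus EV it was -0.29 ± 0.10, which missed the threshold (adjusted p = 0.241, 95% confidence interval -0.50 to -0.07). The difference between the peptides, -0.46 ± 0.11, was itself called (adjusted p = 0.00496). In bulk RNA, fewer cells of a type and less RNA per cell cannot be told apart.

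Differences from EV varied with base composition over all tested genes, in dnFOS and, less strongly, in dnCEBP. The longest LYL1 transcript was 57.4% GC. This puts the gene among the 3806 tested genes with the highest GC content (55.5% to 73.7%), whose median log2 difference in dnFOS minus EV was -0.20, against 0.20 among the 3806 with the lowest. In dnCEBP minus EV the medians of these sets were -0.13 and 0.08. With a smooth trend in GC content and transcript length removed, LYL1 was still called in dnFOS at -0.59 on the log2 scale, and it was called in all 9 alternatives without a replicate block and in all 6 fits that left out a library (-0.89 to -0.62). The call between the peptides was lost without dnCEBP replicate 1 (adjusted p = 0.102) and without dnFOS replicate 2 (adjusted p = 0.0657).

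GATA2 (ENSG00000179348, chr3:128479427-128493185, minus strand) was slightly lower in dnFOS. It measured 167 and 150 CPM in EV, 167 and 145 CPM in dnCEBP and 133 and 133 CPM in dnFOS. The dnFOS libraries lay below the other 4, while EV and dnCEBP overlapped. The log2 fold change of dnFOS against EV was -0.26 ± 0.09, just past the threshold (adjusted p = 0.0493), and that of dnCEBP was -0.02 ± 0.09 (adjusted p = 0.952). Between the peptides it was -0.23 ± 0.09 (adjusted p = 0.0771), called without dnCEBP replicate 2 (0.0376). Over the 9 alternatives without a replicate block the adjusted p for dnFOS ran from 0.037 to 0.635 and the call held in 5. It was lost with library totals alone (adjusted p = 0.233), with abundant features left out (0.0511), with limma-voom (0.0564) and with the GC and length trend removed, where the log2 fold change was -0.06 (adjusted p = 0.635). The longest GATA2 transcript was 59.7% GC. Leaving out EV replicate 1, dnFOS replicate 1 or dnFOS replicate 2 also ended the call (adjusted p = 0.425, 0.0896 and 0.124).

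TAL1 (ENSG00000162367, chr1:47216290-47232220, minus strand), the helix-loop-helix factor needed to form blood stem cells, had its highest values in dnCEBP, where LYL1 lay below EV. It stood at 142 and 146 CPM in EV, 169 and 174 CPM in dnCEBP and 146 and 139 CPM in dnFOS. Both dnCEBP libraries were above the other 4, and EV and dnFOS overlapped. The log2 difference of dnCEBP from EV, 0.25 ± 0.08, was not called over all genes (adjusted p = 0.164, 95% confidence interval 0.08 to 0.42). It was called with the GC and length trend removed (0.30, adjusted p = 0.0137). TAL1 was lower in dnFOS than in dnCEBP by -0.27 ± 0.08 on the log2 scale (adjusted p = 0.0287). That call was lost with library totals alone (-0.14, adjusted p = 0.214) and without dnCEBP replicate 1 (0.0775), dnCEBP replicate 2 (0.134) or dnFOS replicate 2 (0.141). An antisense gene, AL135960.1, shares 845 exon bases with TAL1 but had 5 to 15 counts per library, against 1438 to 4570 for TAL1. Whether the counting used strand was not given in the sources used here, so the reads of such pairs cannot be told apart. FLI1, MYB and MEIS1 also overlap antisense genes, each with at most 22 counts in a library.

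LMO2 (ENSG00000135363, chr11:33858576-33892289, minus strand), which joins TAL1 or LYL1 to GATA factors, was nearly flat. Its libraries gave 57.9 and 60.4 CPM in EV, 53.8 and 58.4 CPM in dnCEBP and 57.0 and 55.3 CPM in dnFOS. The EV range overlapped that of dnCEBP and lay just above that of dnFOS. The log2 difference from EV was -0.07 in dnFOS (95% confidence interval -0.27 to 0.12) and -0.08 in dnCEBP (-0.27 to 0.12), so a change of about that width would not have been seen.

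**Figure D2:**
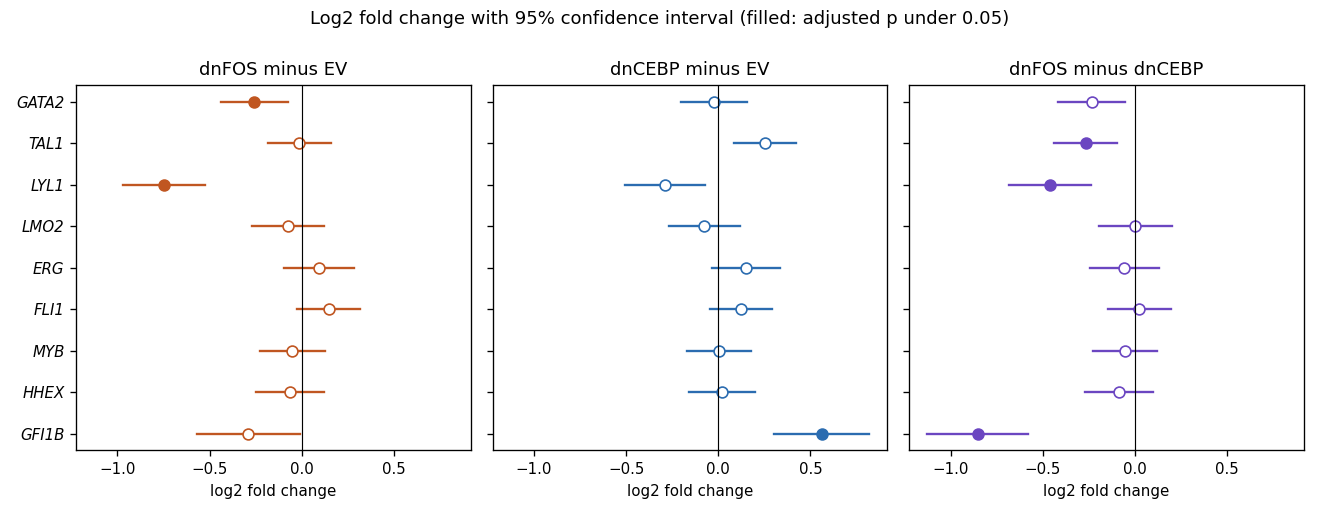
Log2 fold change (horizontal axes) of the 9 tested factors for dnFOS minus EV, dnCEBP minus EV and dnFOS minus dnCEBP. Points are edgeR estimates, bars their 95% confidence intervals, and filled points have an adjusted p under 0.05. LYL1 and GATA2 are filled on the left, GFI1B in the middle, and TAL1, LYL1 and GFI1B on the right.

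The ETS factors ERG and FLI1 were not called in any comparison. ERG (ENSG00000157554, chr21:38380027-38661780, minus strand) measured 82.9 and 82.6 CPM in EV, 84.4 and 99.5 CPM in dnCEBP and 91.5 and 85.0 CPM in dnFOS. Both peptide groups lay above the EV pair, and they overlapped each other. The log2 difference from EV was 0.09 in dnFOS (95% confidence interval -0.09 to 0.28, adjusted p = 0.555) and 0.15 in dnCEBP (-0.03 to 0.34, adjusted p = 0.546). FLI1 (ENSG00000151702, chr11:128686535-128813267, plus strand) measured 126 and 119 CPM in EV, 133 and 134 CPM in dnCEBP and 137 and 135 CPM in dnFOS. Here too the EV pair was the lowest. Its log2 difference from EV was 0.15 in dnFOS (-0.02 to 0.32, adjusted p = 0.262) and 0.12 in dnCEBP (-0.05 to 0.29, adjusted p = 0.597). With library totals alone the dnFOS difference of FLI1 was called (0.24, adjusted p = 0.0339), a scaling that raised the median of all tested genes by 0.10 on the log2 scale.

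MYB and HHEX were not called in any comparison. MYB (ENSG00000118513, chr6:135181315-135219173, plus strand) measured 322 and 309 CPM in EV, 314 and 319 CPM in dnCEBP and 287 and 323 CPM in dnFOS, so the dnFOS pair spanned all other libraries. Its log2 difference from EV was -0.05 in dnFOS (95% confidence interval -0.22 to 0.12) and 0.00 in dnCEBP (-0.17 to 0.18). HHEX (ENSG00000152804, chr10:92689951-92695646, plus strand) gave 77.2 and 79.9 CPM in EV, 79.7 and 79.7 CPM in dnCEBP and 71.0 and 79.6 CPM in dnFOS. The dnFOS pair overlapped EV, and the log2 difference from EV was -0.06 in dnFOS (-0.25 to 0.12) and 0.02 in dnCEBP (-0.16 to 0.20).

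MEIS1 (ENSG00000143995, chr2:66433452-66573869, plus strand) was almost without reads. Both EV libraries had 0 counts, the dnCEBP libraries 0 and 1, and the dnFOS libraries 0 and 4. A count of 0 allows up to 3 counts, which is 0.108 to 0.304 CPM on unscaled library totals depending on the library, and these floors cover counting error only. No fold change is given. Its relative MEIS2 was present in all libraries at 41.1 to 49.7 CPM and was not called in dnFOS (log2 difference from EV 0.19, adjusted p = 0.243) or in dnCEBP (0.25, adjusted p = 0.315).

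GFI1B (ENSG00000165702, chr9:132944000-132991687, plus strand) was the factor that set the peptides farthest apart. Its counts were 508 and 500 for EV (21.3 and 22.9 CPM), 938 and 630 for dnCEBP (34.7 and 30.4 CPM) and 300 and 169 for dnFOS (19.5 and 16.3 CPM). The dnCEBP libraries were the highest, the dnFOS libraries the lowest, and no group overlapped another. GFI1B rose in dnCEBP by 0.56 ± 0.13 on the log2 scale (adjusted p = 0.0196), a fold of 1.48. The dnFOS difference from EV, -0.29 ± 0.14, was not called (adjusted p = 0.158, 95% confidence interval -0.57 to -0.01). Between the peptides the log2 difference was -0.85 ± 0.13 (adjusted p = 4.13e-05), a fold of 1.81 lower in dnFOS.

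The GFI1B difference between the peptides was called in all 9 alternatives without a replicate block and in all 6 fits without a library. The rise in dnCEBP was called in the same 9 alternatives, but each fit without an EV or a dnCEBP library ended the call, with an adjusted p of 0.203 and 0.0944 without EV replicates 1 and 2 and of 0.131 and 0.055 without dnCEBP replicates 1 and 2. GFI1B shares 349 exon bases (5.72% of its exons) with TSC1 on the other strand, a gene with 574 to 1789 counts. How far this overlap affects the GFI1B counts cannot be told from gene totals. Of 7 megakaryocyte markers 4 were tested. In dnFOS versus EV edgeR called 1 (ITGA2B, lower), where 15.0% of all tested genes were called. The log2 differences of the 4 markers went both ways in that comparison, from -0.85 to 0.73. In dnCEBP versus EV (1.07% of all) edgeR, DESeq2 and limma-voom called 0. There the log2 differences ran from 0.21 to 1.05, and 4 markers had an unadjusted p under 0.05 in edgeR. Between the peptides (14.7% of all) edgeR called 3 markers, all lower in dnFOS, with a median log2 difference of -1.14 over the 4. DESeq2 and limma-voom each called 2 of the markers. Their summed level was 187 to 198 CPM in EV, 208 to 245 CPM in dnCEBP and 104 to 116 CPM in dnFOS, nearly all from ITGA2B (100.3 to 235 CPM), with GP1BA at 0 to 2 counts and PF4 at 2 to 7. Their part in the GFI1B result was not tested.

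**Figure D3:**
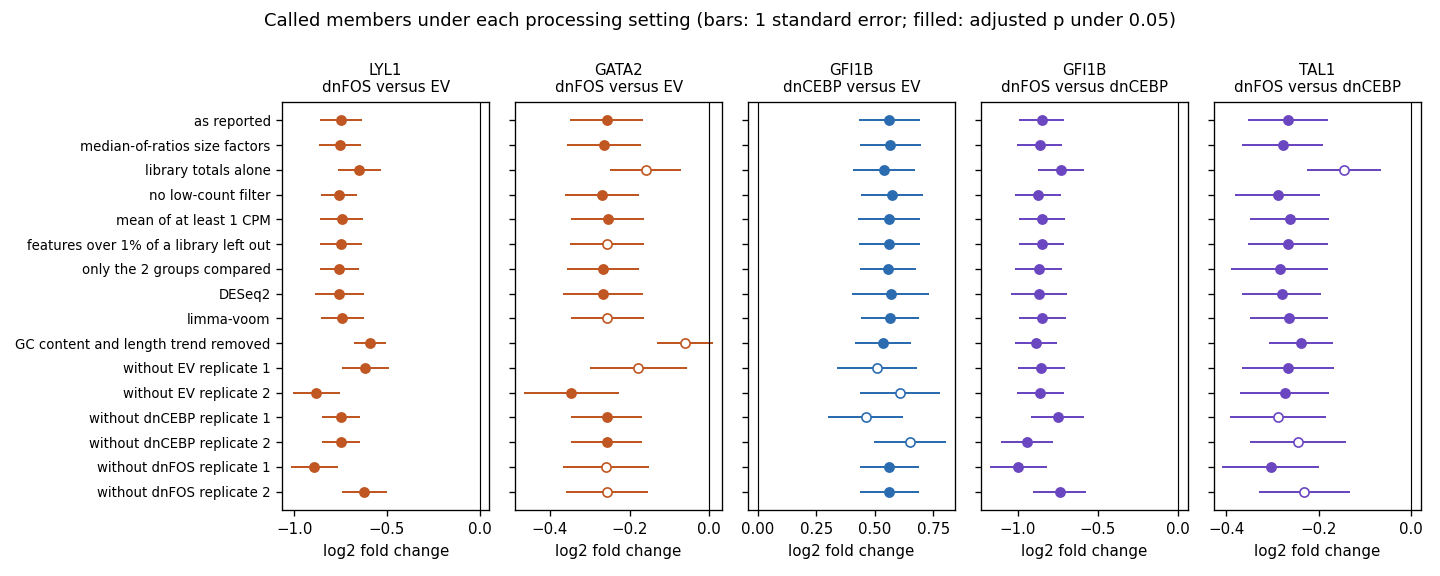
Log2 fold change (horizontal axes) of 5 called results for LYL1, GATA2, GFI1B and TAL1 as reported, under 9 processing alternatives and without each library. Bars are 1 standard error and filled points have an adjusted p under 0.05. LYL1 in dnFOS and GFI1B between the peptides are filled throughout, whereas GATA2 moves to -0.06 once the GC and length trend is removed.

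Per exon length, the order of the factors was nearly the same in the 3 groups. Levels in EV, as RPKM (counts scaled for depth and for exon length), were 57.5 for MYB, 43.5 for LYL1, 35.6 for GATA2, 31.1 for HHEX, 25.3 for TAL1, 19.0 for LMO2, 15.0 for FLI1, 10.9 for ERG and 3.62 for GFI1B. No neighbours in this order overlapped in EV. In dnCEBP the libraries of LYL1 (35.6 RPKM) overlapped those of GATA2 (35.0 RPKM). In dnFOS LYL1 dropped from the second place to the fourth, at 25.8 RPKM, where it overlapped TAL1 at 25.0 RPKM, and HHEX (29.8 RPKM) overlapped GATA2 (29.7 RPKM).

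Ratios of related genes within a library do not depend on the scaling of libraries. The ratio of LYL1 to TAL1 counts was 1.04 and 0.847 in EV, against 0.72 and 0.575 in dnCEBP, and reached 0.602 and 0.526 in dnFOS. All peptide libraries lay below the EV pair, and the peptide groups overlapped. The ratio of GFI1B to its paralogue GFI1, the repressor of the granulocytic branch, was 0.399 and 0.448 in EV and 0.42 and 0.331 in dnFOS, but 0.973 and 0.793 in dnCEBP. GFI1 itself fell in dnCEBP (51.0 to 53.4 CPM in EV, 35.7 to 38.3 CPM in dnCEBP, log2 fold change -0.50 ± 0.10, adjusted p = 0.00925), so both genes of the ratio were called, in opposite directions. Each fit without an EV or dnCEBP library ended the GFI1 call, with adjusted p of 0.0603 to 0.125.

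The ratio of GATA1 to GATA2, which changes as erythroid and megakaryocytic cells replace GATA2 with GATA1, was 0.0457 and 0.0409 in EV, similar at 0.0456 and 0.0576 in dnCEBP, and 0.0177 and 0.0219 in dnFOS. The dnFOS pair was below all other libraries. GATA1 fell in dnFOS from 7.64 and 6.13 CPM in EV to 2.34 and 2.90 CPM (log2 fold change -1.41 ± 0.25, adjusted p = 0.000214). Its values in dnCEBP were 7.62 and 8.35 CPM (0.21 ± 0.20, adjusted p = 0.74). ERG to FLI1, by contrast, ran from 0.631 to 0.742 with overlap among the 3 groups.

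**Figure D4:**
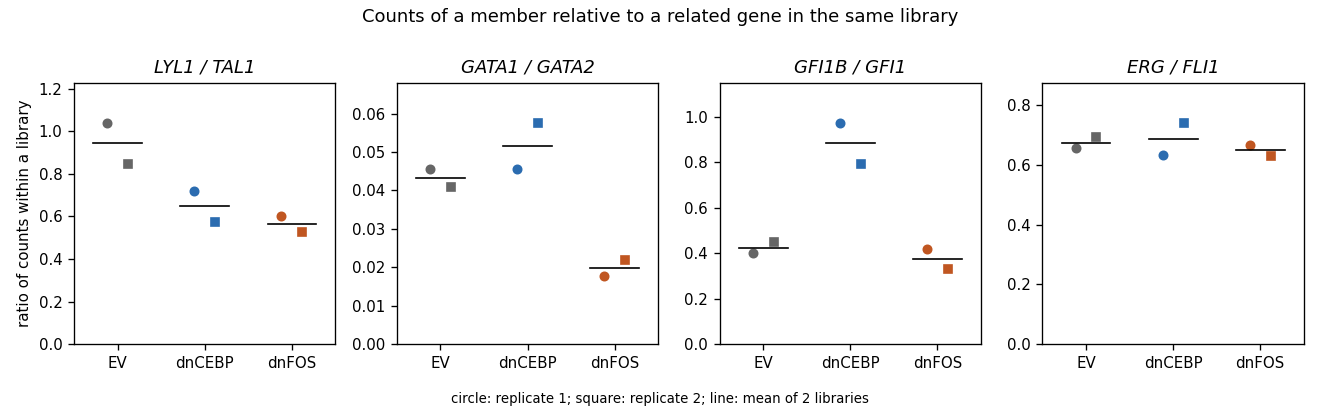
Ratio of counts of related genes within each library (vertical axes from 0) for LYL1 to TAL1, GATA1 to GATA2, GFI1B to GFI1 and ERG to FLI1 in EV, dnCEBP and dnFOS. Circles are replicate 1, squares replicate 2 and lines the mean of 2 libraries. GATA1 to GATA2 is lowest in dnFOS at 0.0177 and 0.0219, and GFI1B to GFI1 is highest in dnCEBP at 0.973 and 0.793.

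The genes of the proteins that TAL1, LYL1, LMO2 and GATA2 bind were described next. Over all tested genes 15.0% were called in dnFOS and 1.07% in dnCEBP, so a short list can hold 0 calls without standing apart. Of 12 complex partners, 11 were tested and 0 were called in dnFOS or dnCEBP by edgeR. They included LDB1, the dimerizing partner of LMO2, at 60.8 to 70.8 CPM, and the E proteins TCF3 (30.2 to 41.2 CPM), TCF12 (69.2 to 77.2 CPM) and TCF4 (22.6 to 29.8 CPM). The log2 differences from EV ranged from -0.17 to 0.29 in dnFOS and from -0.28 to 0.11 in dnCEBP. At an unadjusted p under 0.05 edgeR counted 1 of them in dnFOS (TCF4) and 0 in dnCEBP, and DESeq2 and limma-voom also called 0. With library totals alone, and with the GC and length trend removed, 1 was called in dnFOS. Of the ID proteins, which sequester E proteins, ID1 (1.68 to 2.54 CPM) and ID2 (4.56 to 6.66 CPM) passed the filter and had 0 calls against EV by edgeR, DESeq2 or limma-voom and 0 at an unadjusted p under 0.05 against EV, and ID4 had no count.

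Among the partners of the other factors, HOXA9 and PSIP1 were called, both in dnFOS. Over all tested genes 15.0% were called in dnFOS and 1.07% in dnCEBP. HOXA9, which pairs with MEIS1, rose from 40.5 and 42.9 CPM in EV to 54.5 and 65.5 CPM in dnFOS (log2 fold change 0.52 ± 0.11, adjusted p = 0.00137) and was 44.2 and 48.0 CPM in dnCEBP. Of the 7 tested MEIS1 partners 1 was called. PSIP1, a chromatin reader that works with MEN1 and KMT2A, rose from 64.8 and 70.9 CPM to 86.1 and 90.6 CPM in dnFOS (0.38 ± 0.09, adjusted p = 0.00417), 1 of 6 MYB cofactors, and was not called without EV replicate 1 (adjusted p = 0.117). The 6 corepressors of GFI1B had 0 calls in dnFOS and dnCEBP by edgeR, DESeq2 or limma-voom, and at an unadjusted p under 0.05 edgeR counted 0 in dnFOS and 1 in dnCEBP (EHMT2). KDM1A was at 193 to 225 CPM and RCOR1 at 67.1 to 76.3 CPM.

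Close relatives of the factors were called in both directions. The shares of all tested genes called were 15.0% in dnFOS and 1.07% in dnCEBP. Of 16 relatives, 11 were tested. In dnFOS 1 rose and 2 fell, and in dnCEBP 0 rose and 1 fell, the latter being GFI1. Beside GATA1, the ETS factor ETS2 fell in dnFOS from 229.9 and 233 CPM to 186 and 189 CPM (log2 fold change -0.30 ± 0.08, adjusted p = 0.0115). GABPA, also an ETS factor, rose from 30.0 and 32.8 CPM to 36.3 and 51.0 CPM (0.46 ± 0.13, adjusted p = 0.0157). GABPA was not called with the GC and length trend removed (0.17, adjusted p = 0.325), without EV replicate 1 (0.119) or without dnFOS replicate 2 (0.427), and ETS2 was not called with library totals alone (0.0684) or without either EV library (0.095 and 0.0742). The count of relatives called in dnFOS was 5 with library totals alone and 1 without EV replicate 1. The median log2 difference of the tested relatives was 0.19 in dnFOS and 0.01 in dnCEBP, and LMO1 and FEV were not detected above 3 counts.

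Genes of stem and progenitor cells outside the 10 factors were mostly higher where they were called in dnFOS. Of 19 such genes 14 were tested, of which 7 rose and 1 fell in dnFOS (15.0% of all tested genes were called there), and in dnCEBP 0 rose and 1 fell (1.07% of all). Between the peptides, 11 of the 14 were called (14.7% of all), 8 higher and 3 lower in dnFOS. Their log2 differences there ran from -1.23 to 0.78. The median log2 difference of the 14 was 0.22 in dnFOS and 0.13 in dnCEBP. BCL11A, a zinc finger repressor, rose from 15.4 and 17.9 CPM in EV to 24.6 and 33.4 CPM in dnFOS (0.79 ± 0.15, adjusted p = 0.000456). SPINK2, a protease inhibitor of early progenitors, rose from 11.1 and 10.5 CPM to 17.3 and 17.9 CPM (0.70 ± 0.16, adjusted p = 0.00277). BMI1, a Polycomb protein of self-renewing cells, rose from 78.1 and 78.4 CPM to 105 and 138 CPM (0.63 ± 0.11, adjusted p = 0.00026). For each of these, both dnFOS libraries exceeded both EV libraries. With the GC and length trend removed, BCL11A (0.77), SPINK2 (0.78) and BMI1 (0.43) were still called. IKZF2, another gene of this list that rose (0.44, adjusted p = 0.00141), was named after its value was seen. It was not called with the trend removed (0.10, adjusted p = 0.358). CD34, listed with the blast markers, was lower in dnFOS than in dnCEBP (-0.38 ± 0.08, adjusted p = 0.00237). Against EV its dnFOS difference was -0.22 (adjusted p = 0.0746).

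MSI2, an RNA-binding protein, rose by 0.62 ± 0.09 on the log2 scale in dnFOS (adjusted p = 1.82e-05) and BCL2, which blocks apoptosis, by 0.48 ± 0.09 (adjusted p = 0.000274). The member that fell in dnFOS was NFE2 (-0.27 ± 0.09, adjusted p = 0.0496), named after its value was seen, and 5 alternatives without a replicate block and 3 fits without a library ended that call. MYC fell in dnCEBP from 233 and 215 CPM to 149 and 130.5 CPM (-0.68 ± 0.09, adjusted p = 4.76e-05) and was 216 and 202 CPM in dnFOS. MECOM, PRDM16, HMGA2 and PROM1, also listed as stem cell genes, had no count in any library. The plot of fold changes by list sets these values beside the 10 factors.

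**Figure D5:**
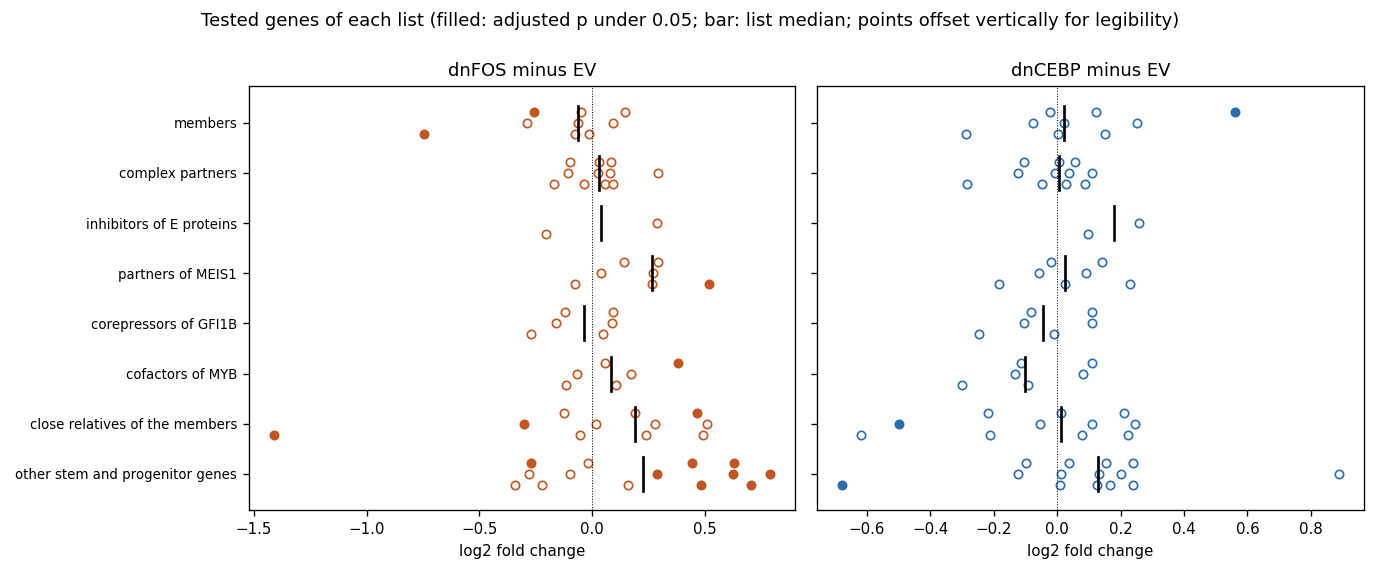
Log2 fold change (horizontal axes) of every tested gene of each list, lineage markers left out, for dnFOS minus EV and dnCEBP minus EV. Points are genes, filled where the adjusted p is under 0.05, and black bars are list medians. In dnFOS, 8 of the 14 other stem and progenitor genes are filled, and 0 of the 11 complex partners. Over all tested genes 15.0% were called there.

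Genes whose levels followed LYL1 and GATA2 across the 6 libraries were searched among 9961 genes with a mean of at least 5 CPM. For LYL1 the nearest were HIGD2A, PYCR1 and DDRGK1 (Pearson r of log2 CPM 0.998, 0.998 and 0.995), and 199 genes reached an r of 0.95. For GATA2 the nearest were PSMB10, NTMT1 and CKB (r 0.992, 0.991 and 0.991), and 87 genes reached 0.95. With 6 points that share groups, depth and base composition, these are descriptions of likeness only.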

How the data were processed

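RNA was measured in 6 KO52 libraries, 2 per group, with groups and replicate numbers taken from the sample titles. Per the labels, total RNA was depleted of ribosomal RNA, amplified with 15 cycles of PCR and sequenced as paired-end reads of 75 bases. The submitters' processing notes name Trimmomatic, HISAT2, featureCounts, Subread and the build hg38. The authors deposited 1 table per library of raw, whole-number counts over 60612 gene IDs, with no normalization. The annotation used, the strand setting and the handling of reads matching several genes were not given in the sources used here. Reads shared by paralogues or by overlapping genes may therefore have been dropped or split.

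GENCODE release 29 (GRCh38), which held 58394 of the IDs, gave coordinates, exon lengths for RPKM and the GC content of each gene's longest transcript. Tests used edgeR 4.0.16 (R 4.3.3) on the deposited counts. Genes passing filterByExpr (minimum count 10) were kept, 15395 of 27870 with a count, and libraries were scaled by TMM. The robust quasi-likelihood fit took all 6 libraries together, had a coefficient for each group and no covariate, and p-values were two-sided and Benjamini-Hochberg adjusted over all genes tested. The fit left 3 residual degrees of freedom with a biological coefficient of variation of 0.0961. Total counts ran from 9862994 to 27663179 per library, so 3 counts were worth 0.108 to 0.304 CPM on these totals. The procedure was tested on data simulated from these libraries with known changes. Of the simulated 2-fold changes in dnFOS, 62% were called against EV, so a gene that was not called may still differ. Alternatives were a low-count filter removed or set at a mean of 1 CPM, size factors by median of ratios, library totals alone, features over 1% of a library left out, a fit to the groups compared only, DESeq2 1.42.0, limma-voom (limma 3.58.1), a replicate block, a trend in GC content and length removed (mgcv 1.9.3), and each library left out. The fit without a library assumes that the lone library of its group varies like the others.

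All 10 factors are named. From each other list, genes called against EV with a mean of at least 1 CPM are named, up to 6 per list by size of change, and for each factor called in dnFOS the 3 genes (mean of at least 5 CPM) most alike over the libraries. The factors, lists and tests were chosen with earlier results of these data known.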

Additional observations from a re-analysis of the deposited data

How the results depend on the processing

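With 2 libraries a group, single libraries decided several calls. Leaving out each in turn gave 1 to 2 of the 9 tested factors called in dnFOS versus EV (972 to 2426 of all genes), 0 to 1 in dnCEBP versus EV (33 to 314 genes) and 1 to 3 between the peptides (1182 to 2262 genes). For all genes, the count in dnFOS versus EV was 1059 without EV replicate 1 and 972 without dnFOS replicate 2. In dnCEBP versus EV it was 81 and 53 without EV replicates 1 and 2, 257 and 33 without dnCEBP replicates 1 and 2, and 311 and 314 without dnFOS replicates 1 and 2. Between the peptides it was 1349 without dnCEBP replicate 1 and 1182 without dnFOS replicate 2, where 1 factor, GFI1B, was called. The number of factors called in dnFOS versus EV was 1 with features over 1% left out, with limma-voom and with the GC and length trend removed, GATA2 being lost in each. With library totals alone it stayed at 2, with GATA2 lost and FLI1 gained. In dnCEBP versus EV it was 2 with that trend removed, TAL1 being added, and all genes called there numbered 255 without the low-count filter, 297 in a fit to EV and dnCEBP alone and 263 after the trend was removed, against 165. With library totals alone, calls in dnFOS versus EV split into 1905 higher and 676 lower and with the trend removed into 737 and 1324, against 1115 and 1194. Between the peptides the split was 2101 higher and 714 lower with library totals alone, against 1052 and 1207.

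Deviations of same-numbered libraries correlated by 0.0174 to 0.0878 over all tested genes, which cannot exclude pairing. Whether replicate numbers mark pairs was not given in the sources used here, and the fit treated libraries as unpaired. With the numbers as a replicate block, 3 factors were called in dnCEBP versus EV (TAL1 and LYL1 added) among 488 genes. With this block GATA2 was added between the peptides (adjusted p = 0.0223) among 3013 genes against 2259, and 3172 genes were called in dnFOS versus EV against 2309.

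Differences near 0 changed sign, on the log2 scale, and none of them was called either way. With library totals alone TAL1 (0.084), LMO2 (0.024), MYB (0.048) and HHEX (0.035) turned positive in dnFOS minus EV, MYB (-0.020) and HHEX (-0.001) turned negative in dnCEBP minus EV, and ERG (0.065), MYB (0.067) and HHEX (0.036) turned positive between the peptides. With the trend removed the values were 0.057 for TAL1 and 0.045 for LMO2 in dnFOS minus EV, 0.090 for GATA2, -0.036 for MYB and -0.022 for HHEX in dnCEBP minus EV, and -0.040 for FLI1 between the peptides. In fits to the groups compared alone, MYB was -0.002 in dnCEBP minus EV and LMO2 -0.016 between the peptides. LMO2 between the peptides was also -0.020 without the filter, -0.009 with median-of-ratios factors and -0.012 with DESeq2. Without a library, GATA2 ran from -0.131 to 0.075, MYB from -0.033 to 0.034 and HHEX from -0.003 to 0.041 in dnCEBP minus EV. TAL1 ran from -0.052 to 0.021, MYB from -0.140 to 0.035 and HHEX from -0.144 to 0.019 in dnFOS minus EV. LMO2 ran from -0.056 to 0.061, ERG from -0.172 to 0.065 and MYB from -0.143 to 0.031 between the peptides. The causes were not tested. Over single factors and settings that kept all libraries, 240 results kept their direction and their side of the threshold, 20 changed sign, 5 lost a call and 5 gained one.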

Other observations

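GATA2, TAL1 and GFI1B are also known as factors of mast cells or megakaryocytes, and marker genes of these and other blood lineages gave the following values. The shares of all tested genes called against EV were 15.0% in dnFOS and 1.07% in dnCEBP. Of 7 mast cell, basophil and eosinophil markers 6 were tested, of which 4 fell in dnFOS, and in dnCEBP 1 rose and 1 fell. Their summed level was 423 to 442 CPM in EV, 523 to 535 CPM in dnCEBP and 185 to 209 CPM in dnFOS, in EV and dnFOS mostly from HDC. The log2 differences of the 6 in dnFOS minus EV ran from -3.74 to 0.54. DESeq2, which gave no adjusted p for CLC in dnCEBP, called 3 of these markers in dnFOS and 1 in dnCEBP. CPA3, the mast cell carboxypeptidase, was 78.5 and 75.4 CPM in EV, 109 and 129 CPM in dnCEBP and 40.0 and 36.9 CPM in dnFOS, a fall of 1.00 ± 0.10 on the log2 scale in dnFOS (edgeR adjusted p = 2.88e-08) and a rise of 0.63 ± 0.09 in dnCEBP (edgeR adjusted p = 0.000163). HDC, which makes histamine, fell in dnFOS from 325 and 348 CPM to 159 and 136 CPM (edgeR adjusted p = 1.26e-10), and CLC, the Charcot-Leyden crystal protein of eosinophils and basophils, from 10.95 and 10.07 CPM to 0.651 and 0.967 CPM (edgeR adjusted p = 3.08e-10). CLC was also the marker that fell in dnCEBP, to 4.77 and 4.63 CPM (a fall of 1.16 ± 0.20 on the log2 scale, edgeR adjusted p = 0.00183). ITGA2B, the megakaryocyte integrin, was 192 and 182 CPM in EV, 235 and 197 CPM in dnCEBP and 110 and 100.3 CPM in dnFOS, a fall of 0.83 ± 0.09 on the log2 scale in dnFOS (edgeR adjusted p = 2.94e-07). CPA3 and ITGA2B were highest in dnCEBP and lowest in dnFOS, although the dnCEBP difference of ITGA2B from EV was not called (edgeR adjusted p = 0.338).

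Of the 6 myeloid blast markers, 2 fell in dnFOS and 1 in dnCEBP by edgeR (15.0% and 1.07% of all tested genes were called). DESeq2 and limma-voom each called 2 of them in dnCEBP. MPO, the myeloperoxidase of granulocyte precursors, was 239 and 194 CPM in EV, 63.5 and 53.0 CPM in dnCEBP and 153 and 140.0 CPM in dnFOS, called in both (edgeR adjusted p = 5.03e-13 in dnCEBP and 0.000273 in dnFOS). PTPRC fell in dnFOS to 313 and 321 CPM (edgeR adjusted p = 0.00663). The monocyte list had 1 of 2 tested genes called in dnFOS (LYZ, lower) and the lymphoid list 2 of 3 (CD3D and NKG7, lower). Both lymphoid calls were lost with library totals alone (edgeR adjusted p = 0.145 for CD3D and 0.113 for NKG7). They were also lost with the GC and length trend removed (edgeR adjusted p = 0.0593 and 0.269), and DESeq2 did not call NKG7 (adjusted p = 0.0649). In dnCEBP edgeR, DESeq2 and limma-voom called 0 genes of both lists, with 1 monocyte and 2 lymphoid genes at an unadjusted p under 0.05 in edgeR. The 4 tested erythroid genes had 0 calls in either comparison with EV by edgeR, DESeq2 or limma-voom, and 0 at an unadjusted p under 0.05 in edgeR. Their part in the results for the 10 factors was not tested.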
